A study of Mus musculus with 6 samples.

Results

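The 10 genes Slc2a1, Hk1, Hk2, Gpi1, Pfkl, Pfkp, Aldoa, Pgk1, Eno1 and Ldha carry glucose into the cell and turn it into lactate. They were picked by gene symbol from a table of 27179 genes, and all 10 were found. The cells were B16F10, an established mouse melanoma line of wild-type genotype, kept in DMEM with serum. Cultures received 0.01% ozonated olive oil (OZO) or 0.01% olive oil (OLO) for 6 h, with 3 libraries for each oil. The level analysed here is the authors' mean of log2 CPM over the libraries of both treatments, where CPM is the read count of a gene scaled to a fixed library total. It therefore describes OZO-treated and OLO-treated cells together, it gives no difference between them, and it has no spread between libraries.

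Glycolysis starts with glucose entering through transporters of the Slc2a family, of which Slc2a1 (GLUT1) is the common form of dividing cells. Hexokinases (Hk1, Hk2) phosphorylate glucose and thereby hold it in the cell, Gpi1 isomerises the product, and phosphofructokinases (Pfkl, Pfkp, Pfkm) make the committed step. Aldolase (Aldoa) then splits the sugar, phosphoglycerate kinase (Pgk1) yields ATP, enolase (Eno1) prepares the substrate of pyruvate kinase, and lactate dehydrogenase A (Ldha) reduces pyruvate to lactate. Tumour cells, melanoma among them, are known for high glycolysis even in the presence of oxygen, and HIF and MYC are textbook regulators of these genes.

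Melanocyte markers were abundant and those of other cell types low. Of 12 genes of the melanocyte lineage, 11 had at least 1 CPM, led by Dct with 7052 CPM, Tyrp1 with 5832 CPM and Pmel with 3066 CPM, and Oca2 stood just under the limit with 0.924 CPM. Of 8 keratinocyte markers 0 reached 1 CPM, and the highest of them was Cdh1 with 0.288 CPM. Among 7 fibroblast markers 3 did so, with at most 3.28 CPM. Of 6 immune markers 1 did so, Cd68 with 5.47 CPM, and their summed level was 5.94 CPM. Of 4 endothelial markers 1 did so, Pecam1 with 1.21 CPM, and their summed level was 1.80 CPM. Genes without reads share the lowest value of the table, which places the geometric mean of the library sizes at 19641946 reads and makes 1 CPM worth 19.6 of them. The lowest of the 10 genes, Slc2a1, thus rested on about 998 reads per library and the highest, Pgk1, on about 40016. At this depth counting error is small for all 10, whereas variation between cultures cannot be read from a mean.

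Among the 10 genes, levels from aldolase onward were far higher than at glucose entry. To compare genes, CPM was divided by the length in kilobases of the reference transcript of each gene (CPM per kb). Pgk1 stood highest with 1116 CPM per kb, followed by Eno1 with 821, Ldha with 741 and Aldoa with 705 CPM per kb. These 4 genes lay within a factor of 1.58 of each other by this length. Per kb of all annotated exons they were further apart and in another order, with 908 for Pgk1, 395 for Ldha, 366 for Aldoa and 309 for Eno1, and per kb of coding sequence Ldha (1313) stood above Eno1 (1278). Together they made 83.9% of the summed CPM of the 10 genes. Below them came a gap of 4.35-fold to Gpi1, with 162 CPM per kb, and then Hk2 with 62.3 CPM per kb. Pfkl (26.1), Hk1 (25.6) and Pfkp (25.5 CPM per kb) were nearly level, and Slc2a1 was lowest with 15.6 CPM per kb. Per kb of all annotated exons Slc2a1 (14.5) stood above Hk1 (11.5) and Pfkp (7.87). The span from Slc2a1 to Pgk1 was 71.6-fold per kb and, without division by length, 40.1-fold. Whether neighbours in this order differ beyond the spread of the libraries was not tested, and the order of Pfkl, Hk1 and Pfkp, which lay within 2.60%, also changed with the length used.

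**Figure D1:**
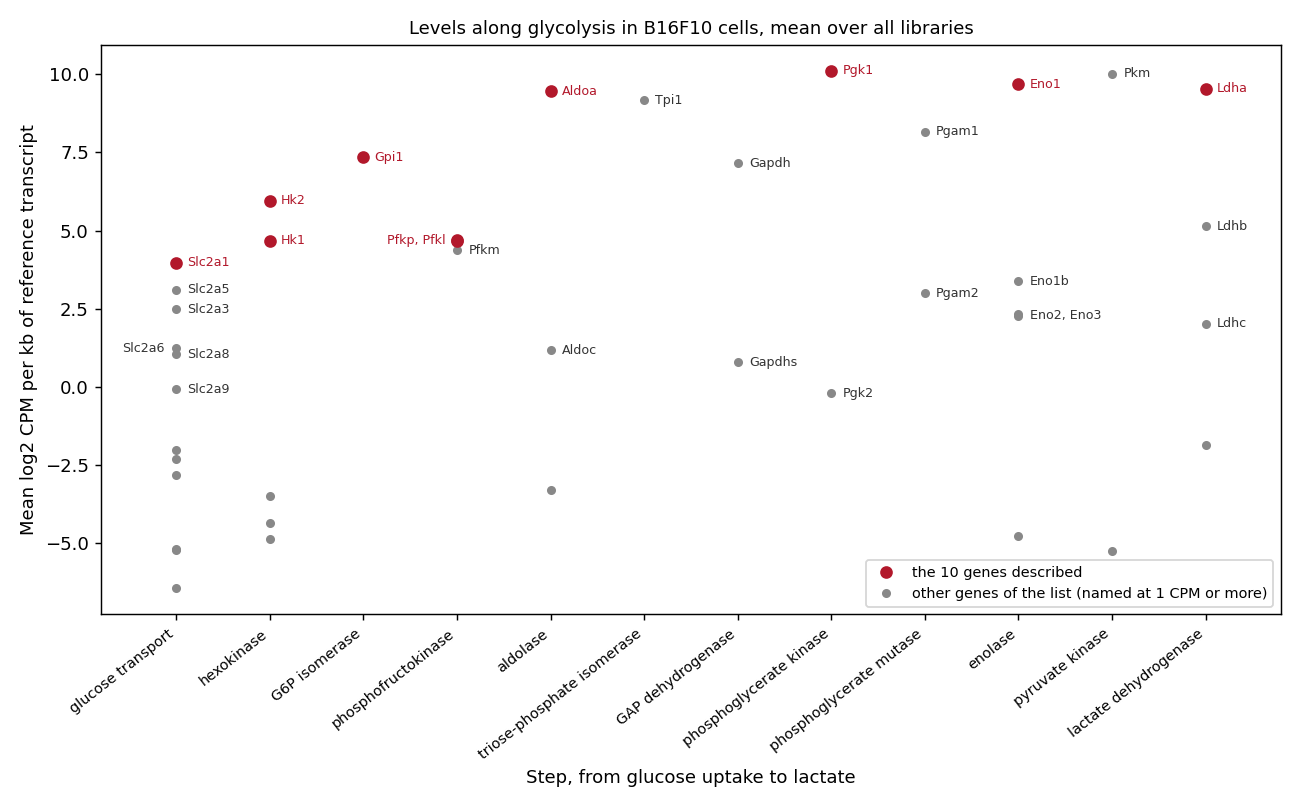
Mean log2 CPM per kb of reference transcript (vertical axis) for 42 genes of glucose transport and glycolysis, ordered by step from uptake to lactate (horizontal axis). Each point is 1 gene, as the authors' mean over all libraries. Red points are the 10 genes described, and they run from 3.96 for Slc2a1 to 10.12 for Pgk1.

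The 10 genes were among the more highly expressed of the transcriptome, but to unequal degrees. Out of 19227 genes with reads and an annotated length, Pgk1 lay above 99.9%, Eno1 above 99.8%, Ldha above 99.8% and Aldoa above 99.7% in CPM per kb. Gpi1 stood above 98.3% and Hk2 above 94.4% of these genes. Pfkl, Hk1 and Pfkp exceeded 84.6%, 84.3% and 84.2%, and Slc2a1 exceeded 76.0%. Set against the 11477 genes with at least 1 CPM and a length, Slc2a1 was above only 59.7%, and the median gene of that set had 11.1 CPM per kb. The median of the 10 genes was 112 CPM per kb. Together the 10 genes took 0.743% of the summed CPM of the table. Pgk1 was below Pmel, the melanosome scaffold protein, which had 1439 CPM per kb, and above Mlana, with 602 CPM per kb.

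**Figure D2:**
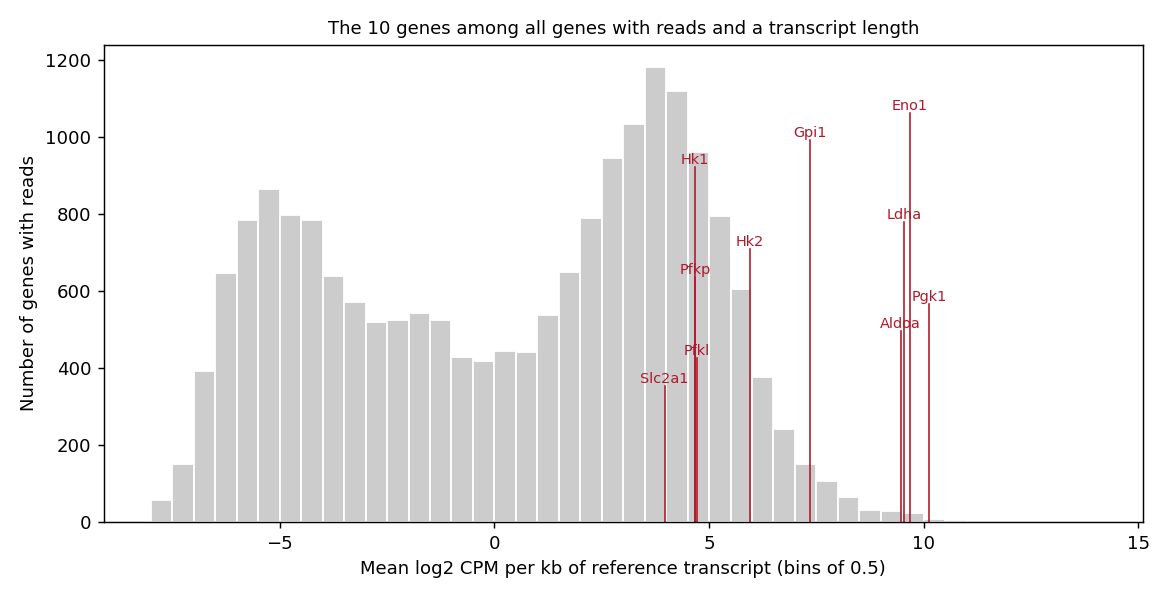
Number of genes with reads (grey bars, vertical axis) by mean log2 CPM per kb of reference transcript (horizontal axis, bins of 0.5). Red lines mark the 10 genes, of which Pgk1, Eno1, Ldha and Aldoa stand at the right edge and Slc2a1 stands in the broad peak of expressed genes. The height of a red line has no meaning.

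Isoforms were read against a list of 42 transporter and enzyme genes that covers 12 steps, of which 8 hold at least 1 of the 10 genes. All 10 and 19 of the 32 other genes had at least 1 CPM. In each of the 8 steps the gene with the highest CPM per kb was 1 of the 10, with 1 exception per kb of all annotated exons, where Pfkm came first among phosphofructokinases. Gpi1 is the only listed gene of its step, so its lead there was fixed by the list. In the other steps the dominance of the leading gene differed. Pgk1 made 99.9% of the phosphoglycerate kinase level, where Pgk2, the testis form, had 1.40 CPM. Aldoa made 99.7% of the aldolase level, against 0.319% for Aldoc, the brain form, or 0.523% per kb of all annotated exons. Eno1 made 97.6% of the enolase level, and it exceeded the neuronal Eno2 by 170-fold (108-fold per kb of all annotated exons) and the muscle form Eno3 with 5.01 CPM per kb. Ldha made 94.9% of the lactate dehydrogenase level per kb, against 4.52% (6.84% per kb of all annotated exons) for Ldhb, whose subunit favours the conversion of lactate to pyruvate.

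At the entry of the pathway expression was divided among several genes. Hk2, the insulin-responsive hexokinase that many tumours induce, made 70.8% of the hexokinase level, and Hk1, the housekeeping form, made 29.0%, or 16.7% per kb of all annotated exons. Hk2 was 2.44-fold higher than Hk1 per kb of the reference transcript, 3.59-fold per kb of coding sequence and 4.98-fold per kb of all annotated exons. Hk3 and Hkdc1 had 0.158 and 0.312 CPM, which is at most about 6 reads per library. The phosphofructokinase level was divided among 3 forms, with 36.2% for Pfkl, the liver form, 35.2% for Pfkp, the platelet form, and 28.6% for Pfkm, the muscle form. Pfkm, with 20.7 CPM per kb, is the member of this trio that is outside the 10 genes, and per kb of all annotated exons the shares were 44.2% for Pfkm, 36.2% for Pfkl and 19.6% for Pfkp. Slc2a1 made 43.6% of the level of the 12 listed Slc2a transporters, which include carriers of other substrates. Slc2a5, the fructose transporter, made 24.0% and Slc2a3, the high-affinity neuronal form, made 15.6%. Slc2a1 was 1.82-fold higher than Slc2a5 and 2.81-fold higher than Slc2a3, the latter 4.77-fold per kb of all annotated exons. Slc2a6, Slc2a8 and Slc2a9 had between 3.42 and 5.04 CPM, while Slc2a4, the insulin-regulated form, had 0.620 CPM and the liver form Slc2a2 had 0.0636 CPM, about 1 read per library and the lowest of the list. Slc2a13, the proton and myo-inositol transporter, was the highest of the 13 listed genes under 1 CPM, with 0.925 CPM.

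**Figure D3:**
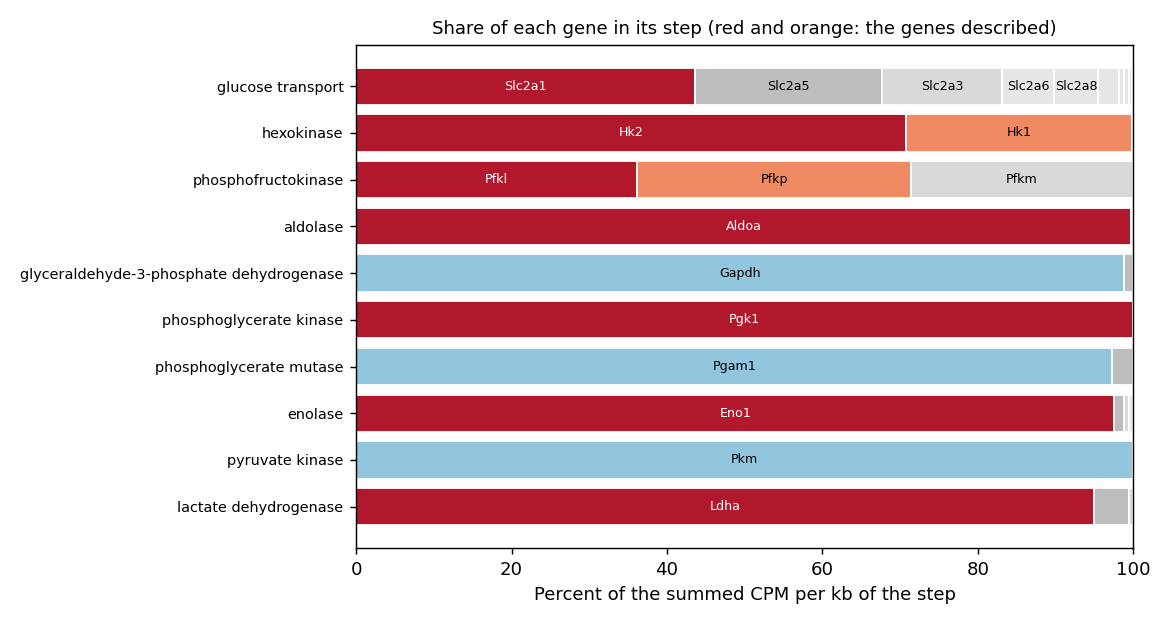
Share of each gene in the summed CPM per kb of its step (horizontal axis, percent), for the 10 steps with more than 1 gene. Red is the leading gene of a step where it is 1 of the 10 genes, orange a further gene of the 10, and blue or grey another gene. Hexokinase, phosphofructokinase and glucose transport are divided, and in the other steps 1 gene holds at least 94.9%. The glucose transport bar includes Slc2a5, the fructose transporter.

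The 4 genes that lead the steps without 1 of the 10 ranged from 143 to 1039 CPM per kb. Tpi1, which interconverts the triose phosphates, had 574 CPM per kb, Pgam1, the phosphoglycerate mutase of most tissues, had 285, below Pgk1 and Eno1 on either side of it, and Pkm, the pyruvate kinase of non-hepatic cells, had 1039 CPM per kb. Gapdh, the dehydrogenase between Tpi1 and Pgk1, had 143 CPM per kb, which was 4.01-fold below Tpi1 and 7.80-fold below Pgk1, and per kb of all annotated exons 6.82-fold and 18.5-fold. Their tissue-restricted relatives were low, with 2.36 CPM for the sperm form Gapdhs and 6.66 CPM for the muscle form Pgam2.

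Several of these genes have near-identical copies in the genome, so reads from such stretches match more than 1 place. Of the 150-base stretches in the Pgk1 reference transcript, 66.1% also occur in transcripts of genes elsewhere in the genome, among them Pgk1-rs7 and Gm5537, both processed pseudogenes. For Eno1 the share was 49.0%, with Eno1b, a retrotransposed copy listed with 18.7 CPM, among 6 copies. Eno1 and Eno1b are therefore uncertain relative to each other. Aldoa has 5 copies and Ldha 6 under the same definition (at least 90% identity over at least 50% of the transcript), but neither shared a stretch of 150 bases. Slc2a1, Hk1, Hk2, Gpi1, Pfkl and Pfkp had neither copies nor shared 150-base stretches. Outside the 10 genes the share was 74.0% for Gapdh, with 150 copies, and 37.9% for Pgam1, with 0 copies under that definition. How these shared stretches bear on the levels of Pgk1, Eno1, Gapdh and Pgam1 was not tested.

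The 10 genes lie on 5 autosomes and chromosome X of GRCm38 (mm10). Pgk1 spans chromosome X from 106187100 to 106203699 on the plus strand with 11 exons in its reference transcript. On chromosome 7 lie 3 of them, Gpi1 (34201330 to 34230336), Ldha (46841475 to 46855627) and Aldoa (126795234 to 126800751). Slc2a1 (119108711 to 119137983) and Eno1 (150236721 to 150248879) are on chromosome 4, and Hk1 (62268855 to 62379908) and Pfkl (77986947 to 78010083) on chromosome 10. Hk2 lies on chromosome 6 from 82725025 to 82774454 and Pfkp on chromosome 13 from 6579768 to 6648777. Some have a relative beside them that was expressed at a far lower level. Ldhc, the testis form, begins 5.58 kb beyond Ldha on the same strand and had 5.51 CPM, which was 184-fold below Ldha per kb of reference transcript and 113-fold per kb of all annotated exons. Hkdc1 lies 3.23 kb from Hk1 and was 289-fold below it by the former length and 190-fold by the latter. The exons of Pfkp overlap those of Pitrm1, which had 224 CPM, by 748 bases on the opposite strand. Also on the opposite strand, exons of Gpi1 share 741 bases with Gm26762, those of Hk1 157 bases with Hk1os (0.666 CPM), those of Slc2a1 105 bases with Gm12868 and those of Aldoa 25 bases with Fam57b (0.120 CPM). Whether counting used strand is not given in the sources used here, so reads of these shared bases cannot be assigned to either gene.

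The bases before the start site were compared because HIF binds sites with the core ACGTG or GCGTG. For each gene the RefSeq start nearest to that of the reference transcript was taken. It was 244 bases away for Eno1, 49 for Ldha, 34 for Slc2a1 and 6 for Pfkp. The 250 bases before the start taken were searched on both strands. Further windows were not searched for Hk1 and Ldha, which had 2 each, or for Aldoa and Eno1, which had 3 each. The comparison sets were 32851 mouse windows of this length, 12021 windows of genes with at least 1 CPM and 2498 of genes with at least 100 CPM. These sets count every window of a gene, and Slc2a1, Hk1 and Pfkl did not reach 100 CPM. ACGTG occurred in 4 of the 10 genes, namely Slc2a1, Hk2, Aldoa and Pgk1, against 16.6%, 22.1% and 25.7% of these sets in turn. GCGTG occurred in 5, namely Slc2a1, Pfkl, Pfkp, Eno1 and Ldha, against 28.2%, 45.4% and 50.6%, so its share in the 10 was near that of the highly expressed genes. Either core was found in 8 of 10, against 38.6%, 56.7% and 62.8%, and the windows searched for Hk1 and Gpi1 held neither. These differences were not tested. The E-box CACGTG, which contains ACGTG and is bound by MYC, was in 0 of 10, against 6.02%, 8.44% and 10.2%. TATAAA was in 0 of 10, against 12.4%, 6.27% and 5.84%. The GC box GGGCGG was in 6 of 10, against 32.7%, 58.2% and 64.9%. GC content had a median of 61.0% in the 10 windows, 52.4% in all windows, 60.0% in the 12021 and 62.8% in the 2498. A match is a run of letters and not a measured binding site.

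The windows of the 4 genes with ACGTG are shown 5′ to 3′ on the strand of the gene, from RefSeq on GRCm38.p6, and end at the base before the start site. Capitals mark ACGTG or GCGTG, which read CACGT or CACGC where they are on the opposite strand. They are chrX:106186850-106187099 (plus strand) for Pgk1, chr7:126799255-126799504 (minus) for Aldoa, chr6:82774455-82774704 (minus) for Hk2 and chr4:119108495-119108744 (plus) for Slc2a1.
Pgk1: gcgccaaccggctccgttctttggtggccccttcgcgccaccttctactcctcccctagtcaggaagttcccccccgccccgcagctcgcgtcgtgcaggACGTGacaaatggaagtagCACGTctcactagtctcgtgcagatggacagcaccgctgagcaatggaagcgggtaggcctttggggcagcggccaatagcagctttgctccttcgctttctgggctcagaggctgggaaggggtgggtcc
Aldoa: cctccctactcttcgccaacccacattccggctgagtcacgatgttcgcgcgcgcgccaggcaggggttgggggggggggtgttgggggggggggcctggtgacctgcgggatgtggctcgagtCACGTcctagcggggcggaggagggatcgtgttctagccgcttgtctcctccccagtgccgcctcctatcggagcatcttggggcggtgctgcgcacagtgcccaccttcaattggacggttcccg
Hk2: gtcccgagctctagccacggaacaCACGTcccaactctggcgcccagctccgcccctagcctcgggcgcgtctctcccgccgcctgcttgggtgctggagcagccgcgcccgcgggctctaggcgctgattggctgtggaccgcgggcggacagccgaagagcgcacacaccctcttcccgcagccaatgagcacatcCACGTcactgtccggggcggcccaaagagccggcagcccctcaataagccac
Slc2a1: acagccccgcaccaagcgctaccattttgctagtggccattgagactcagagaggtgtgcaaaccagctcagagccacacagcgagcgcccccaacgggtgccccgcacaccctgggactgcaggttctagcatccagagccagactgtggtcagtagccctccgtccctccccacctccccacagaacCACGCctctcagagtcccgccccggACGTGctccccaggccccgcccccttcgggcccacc
In the Pgk1 window the cores begin 150 and 131 bases before the start, on opposite strands. In Aldoa the core begins 126 bases before it. The Hk2 window holds the core at 226 and at 52 bases, and Slc2a1 has ACGTG at 36 bases and GCGTG at 61. The reference transcript of Slc2a1 starts 34 bases before this RefSeq start, so its ACGTG lies across the reference start. In the order of levels per kb of reference transcript, Pgk1, Aldoa, Hk2 and Slc2a1 held places 1, 4, 6 and 10 of the 10. Whether the core goes with level was not tested.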

How the data were processed

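RNA of B16F10 cells was sequenced from 6 libraries, 3 per treatment. Per the methods and the labels, the authors made libraries with a directional kit, aligned reads to mm10 with HISAT2 2.1.0, counted with featureCounts 2.1.1 and ran limma-voom 3.58.1. The deposited table has 1 row per gene. Its mean log2 CPM column, averaged by the authors over all libraries, was analysed. The other value columns hold the authors' comparison of OZO with OLO (log2 fold change, statistic, p-values and odds), and these were not used. The planned tests of OZO against OLO need a value for each library and were not run. Genes and lists were chosen with earlier results of these data known.

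CPM is 2 to the power of the deposited mean, close to a geometric mean. The library size came from the value shared by the 6025 genes without reads and the 0.5 reads that voom adds, and this was tested on simulated data. Lengths and positions are from GENCODE M21, in which 23882 of 24126 Ensembl identifiers were found. The reference transcript was the longest of the best APPRIS rank. Stretches of 150 bases were matched exactly in all GENCODE transcripts except those of genes that overlap on the genome. Copies were found with blastn. The genes named were the 10 and those of the list at 1 CPM or more, plus the lowest and highest below that and further low isoforms added after their values were seen. Alternatives were other lengths, gene sets and expression limits. Python 3.11.15, numpy 2.4.6, pandas 2.3.3 and BLAST 2.17.0 were used.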

Additional observations from a re-analysis of the deposited data

How the results depend on the processing

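No paired analysis was possible because only a mean over both treatments entered the work. For the same reason another test, normalization or pseudocount, a low-value filter, a replicate block and leaving out each library were not run. The span from the lowest to the highest of the 10 genes, 71.6-fold per kb of reference transcript, was 40.1-fold without length scaling. It was 115-fold per kb of all annotated exons, which makes Pfkp the lowest, and 47.3-fold per kb of coding length, both added after the data were seen. The median percentile of the 10 genes was 96.3 among genes with reads, 97.0 among all genes and 93.8 among genes with at least 1 CPM. Of the 42 listed genes, 37 had at least 0.1 CPM, 29 at least 1 CPM and 20 at least 10 CPM. A gene of the 10 led 8 steps per kb of reference transcript, without length scaling and per kb of coding length. Per kb of all exons it was 7, where Pfkm led phosphofructokinase. These counts include the step of Gpi1, which holds no other listed gene. Pfkp led that step without length scaling and per kb of coding length. A coding length from a protein table was not run, as the annotation was used instead.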
